A study of Mus musculus with 32 samples.

Results

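Voltage-gated sodium channel subunits were followed in the striatum of 4 genotypes of mice. The 7 genes were a list of symbols, Scn1a, Scn2a, Scn3a and Scn8a for the alpha subunits and Scn2b, Scn3b and Scn4b for the beta subunits, and their Ensembl gene IDs were named with GENCODE M21. All 7 were found among the 54532 genes of the count table, and all 7 passed the filter on low counts, which left 16610 genes for testing.

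The authors sequenced polyA-selected libraries of the striatum from 32 mice aged 6 months, 8 for each genotype. The wild-type, Msh3-/- and zQ175 groups each had 4 males and 4 females, and the zQ175:Msh3-/- group had 5 males and 3 females. zQ175 is a knock-in line that carries an expanded CAG repeat in the mouse's own Htt gene, and the Msh3-/- allele was made by CRISPR editing, both on a C57BL/6J background and bred as littermates. The comparisons ask how zQ175 mice differ from mice without the expanded allele, and whether the absence of Msh3, a mismatch repair gene needed for the repeat to expand in tissues, alters that difference.

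The total count ranged from 12359347 to 25030335 reads per mouse, with a median of 16700247. Msh3 itself, as library-scaled counts (CPM, with TMM scaling), lay between 22.9 and 27.5 in wild-type mice with a median of 23.7, and between 22.8 and 27.4 in zQ175 mice with a median of 24.1. In Msh3-/- mice it lay between 10.4 and 13.6 with a median of 11.5, and in zQ175:Msh3-/- mice between 11.1 and 14.2 with a median of 12.8. Every mouse labelled as lacking Msh3 was below every mouse that had it. The counts are per gene and do not separate the edited exons from the rest of Msh3. Xist and Ddx3y matched the labelled sex in 32 of 32 mice.

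An alpha subunit forms the sodium-selective pore that opens on depolarisation and carries the rising phase of the action potential. Beta subunits are small membrane proteins with an immunoglobulin-like domain that adjust the gating and surface delivery of the pore, and the beta4 subunit, encoded by Scn4b, is abundant in the spiny projection neurons of the striatum. The channels are held at the axon initial segment by ankyrin-G and its partners.

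Scn2b and Scn4b are neighbours on chromosome 9, on the plus strand. On GRCm38, Scn2b (ENSMUSG00000070304) lies at chr9:45117782-45130070 and Scn4b (ENSMUSG00000046480) at chr9:45138395-45154152, 8325 bases further on. Scn3b (ENSMUSG00000049281) is on the same chromosome, at chr9:40269217-40291618. Scn3a (ENSMUSG00000057182), Scn2a (ENSMUSG00000075318) and Scn1a (ENSMUSG00000064329) lie on chromosome 2, at chr2:65457118-65567627, chr2:65620771-65767447 and chr2:66270778-66440840. Scn8a (ENSMUSG00000023033) lies on chromosome 15, at chr15:100869858-101045938.

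The sequence before the start of the 2 neighbours is shown because they were the subunit genes that passed the test below. RefSeq promoter windows of 300 bases on GRCm38.p6 were held for 5 of the 7 genes, and only the bases ahead of both the RefSeq and the GENCODE start are printed, 5′ to 3′ on the plus strand, from chr9:45117626-45117781 and chr9:45138374-45138394.
Scn2b: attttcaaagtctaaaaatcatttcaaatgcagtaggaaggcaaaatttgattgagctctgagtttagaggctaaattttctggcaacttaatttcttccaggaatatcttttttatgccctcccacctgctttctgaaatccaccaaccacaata
Scn4b: gtcgtccgcagcgggcaagcc
No base is in capitals, since these stretches hold none of 6 motifs searched on either strand. The stretches are 156 bases for Scn2b and 21 for Scn4b, shorter than the windows of 300 bases. The shares that follow are for whole windows and are not a rate for stretches this short. Of 32851 promoter windows, 1.79% held the cAMP response element TGACGTCA and 5.20% the AP-1 motif TGAGTCA. The TATA box, searched as TATAAA, was in 13.6%, and the GC box, searched as GGGCGG, in 35.7%. The CCAAT box was in 37.4% and the E-box CACGTG in 7.15%. In base composition the windows of the neighbours differ, with 38.3% G or C and 2 CpG in that of Scn2b against 66.3% and 26 in that of Scn4b, where the median of all windows was 52.7% G or C. The full window of Scn4b holds CCAAT, and that of Scn2b holds none of the 6.

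Per transcript length, Scn4b and Scn2b had the highest levels of the 7 genes. In wild-type mice the deposited values in TPM, which are scaled by transcript length, averaged 706 ± 67.9 (SD, n = 8) for Scn4b and 215 ± 10.5 for Scn2b. Scn2a followed at 96.5 ± 5.31, with Scn3b at 76.5 ± 4.99 and Scn8a at 74.7 ± 6.34. Scn1a was at 40.7 ± 2.68 and Scn3a at 28.9 ± 2.48. Scn3b and Scn8a differed by less than 1 SD, and the other neighbours in this order were further apart than their SDs. In zQ175 mice Scn4b, at 255 ± 22.6 TPM, was still the highest, followed by Scn2b at 184 ± 10.7 TPM.

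**Figure D1:**
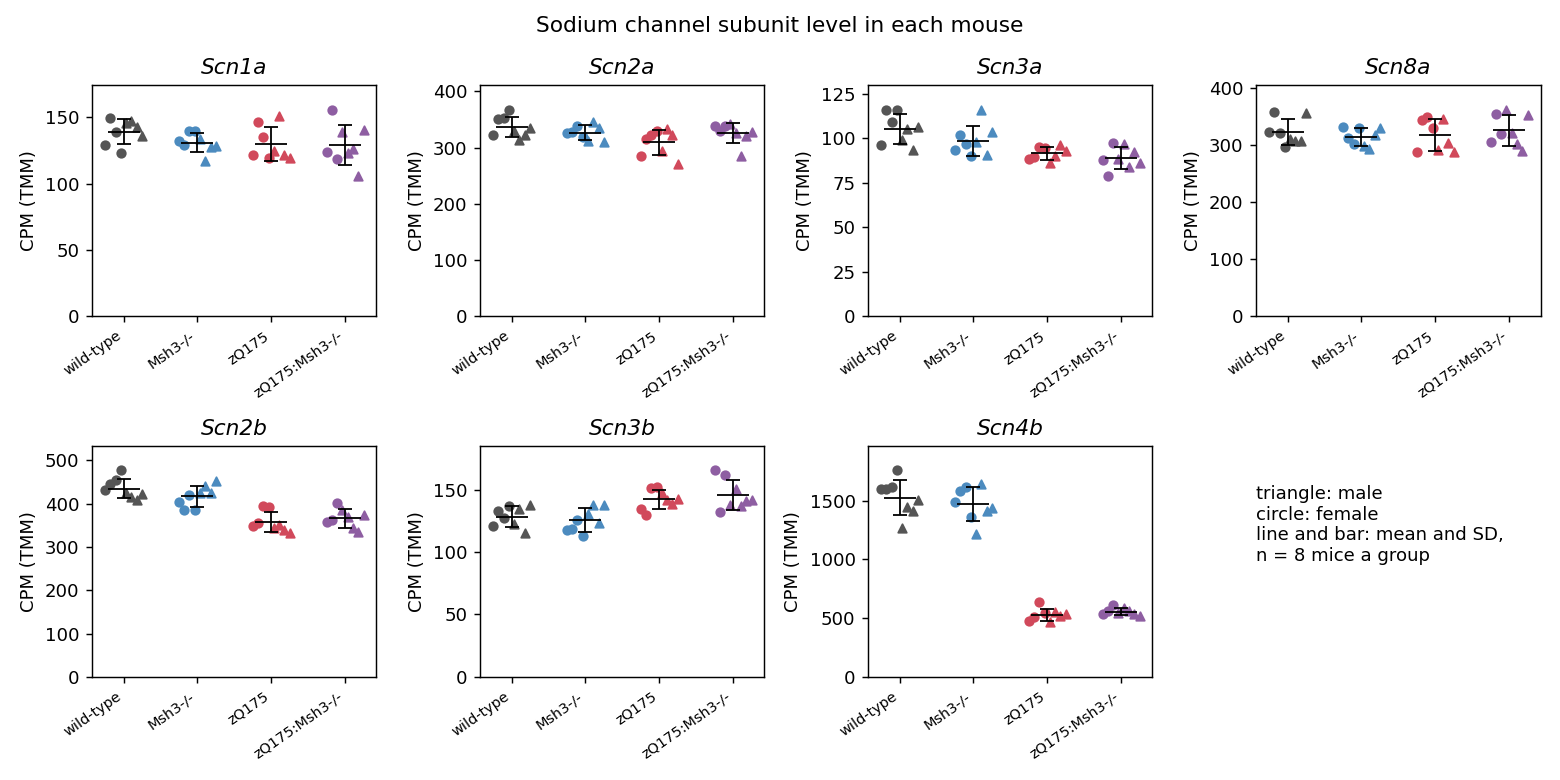
CPM of each subunit gene (vertical axes, from 0) in each of the 32 mice by genotype (horizontal axes); triangles are males, circles females, and the line and bar are the mean and SD of 8 mice. Scn4b lies between 1213.5 and 1757 in mice without the expanded allele and between 470 and 634 in mice with it.

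Among the alpha subunits, no gene passed both thresholds, an adjusted p under 0.05 and a fold of at least 1.2, between zQ175 and wild-type mice. Scn3a, a subunit that is most abundant in the developing brain, had between 93.5 and 116 CPM in wild-type mice (median 106), between 89.9 and 116 in Msh3-/- mice (median 97.2), between 86.1 and 96.4 in zQ175 mice (median 91.5) and between 78.8 and 97.3 in zQ175:Msh3-/- mice (median 87.9). All 8 zQ175 mice lay under the wild-type median and 5 under the lowest wild-type mouse, so the groups overlapped. The log2 fold change was -0.20 with an SE of 0.049 (edgeR's quasi-likelihood test, Benjamini-Hochberg adjusted p = 0.00184), and an exact two-sided permutation test gave p = 0.000932. On the Msh3-/- background it was -0.15 with an SE of 0.049 (edgeR, adjusted p = 0.0192), with 7 of 8 zQ175:Msh3-/- mice under the Msh3-/- median. Its adjusted p did not hold in every setting. On the wild-type background it was between 0.0585 and 0.0867 on the TPM scales (limma) and 0.166 in males only (edgeR). For the Msh3-/- background it was between 0.391 and 0.468 on the TPM scales, 0.335 in females only, 0.0684 without mouse M2 of the Msh3-/- group (log2 fold change -0.12) and 0.0532 without mouse F2 of the zQ175:Msh3-/- group (log2 fold change -0.13).

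Scn2a, which carries the sodium current of many excitatory and striatal projection neurons, had between 314 and 367 CPM in wild-type mice (median 332), between 309 and 346 in Msh3-/- mice (median 326), between 271 and 333 in zQ175 mice (median 319) and between 284 and 342 in zQ175:Msh3-/- mice (median 328). The 4 groups overlapped, and 7 of 8 zQ175 mice were under the wild-type median. Its log2 fold change was -0.12 with an SE of 0.042 between zQ175 and wild-type mice (edgeR, adjusted p = 0.0244) and -0.0036 with an SE of 0.042 on the Msh3-/- background (edgeR, adjusted p = 0.965). The difference between those 2 effects was 0.12 with an SE of 0.059, with an unadjusted p of 0.0487 by edgeR and an adjusted p of 0.999, so it did not pass the test. The adjusted p of the first comparison was between 0.161 and 0.223 on the TPM scales (limma) and 0.418 in males only (edgeR). It was also over 0.05 when single mice were left out, at 0.0502 without F3 and 0.0664 without F4 of the wild-type group, and at 0.0596 without F1, 0.0505 without M1 and 0.0694 without M4 of the zQ175 group, with log2 fold changes from -0.11 to -0.10.

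Scn1a, a subunit known for its part in fast-spiking interneurons, ranged from 106 to 156 CPM and Scn8a, the main subunit of the mature axon initial segment, from 288 to 362 CPM over the 32 mice. For both genes the 4 genotypes overlapped. The log2 fold change of Scn1a was -0.10 with a 95% interval from -0.22 to 0.02 on the wild-type background and -0.02 with an interval from -0.14 to 0.11 on the Msh3-/- background. For Scn8a the values were -0.02 with an interval from -0.12 to 0.08, and 0.05 with an interval from -0.05 to 0.16. Each of these intervals lies within 1.2-fold in either direction.

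Of the beta subunits, 2 were called lower in zQ175 mice and none higher. Scn4b had between 1265 and 1757 CPM in wild-type mice (median 1551) and between 1213.5 and 1638 in Msh3-/- mice (median 1463). It had between 470 and 634 CPM in zQ175 mice (median 525) and between 521 and 608 in zQ175:Msh3-/- mice (median 551). All 16 mice with the expanded allele were below all 16 without it, and the lowest of the latter, mouse M1 of the Msh3-/- group, was at 1213.5 CPM. Scn4b fell 2.88-fold in zQ175 mice, a log2 fold change of -1.53 with an SE of 0.062 (edgeR's quasi-likelihood test, Benjamini-Hochberg adjusted p = 2.03e-19), in 8 of 8 mice, and it ranked 3 by p among the 16610 genes. Without Msh3 it fell 2.65-fold, a log2 fold change of -1.40 with an SE of 0.062 (edgeR, adjusted p = 2.01e-18), in 8 of 8 mice. The exact two-sided permutation test gave p = 0.000155 for each, the smallest that 12870 arrangements of 8 mice against 8 can give.

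Scn2b, which is linked to the alpha subunit by a disulphide bond, had between 409 and 477 CPM in wild-type mice (median 428), between 385 and 453 in Msh3-/- mice (median 421), between 333 and 395 in zQ175 mice (median 350) and between 334 and 401 in zQ175:Msh3-/- mice (median 366). The zQ175 and wild-type mice did not overlap, while 7 of 8 zQ175:Msh3-/- mice lay below the lowest Msh3-/- mouse. Scn2b fell 1.22-fold in zQ175 mice, a log2 fold change of -0.28 with an SE of 0.042 (edgeR, adjusted p = 1.97e-06), which is close to the fold threshold of 0.26 on the log2 scale. Against Msh3-/- mice the log2 fold change of zQ175:Msh3-/- mice was -0.19 with an SE of 0.042 (edgeR, adjusted p = 8.64e-04), short of 1.2-fold. In females only that value was -0.09 (edgeR, adjusted p = 0.388), and in males only -0.27, past both thresholds; the difference between the sexes on this background was not tested. On the TPM scale, with limma on log2(TPM + 0.1), the first value was -0.23 (adjusted p = 4.27e-05) and Scn2b was not called; its adjusted p lay between 4.18e-10 and 9.48e-04 over all the other settings. The difference between the 2 effects was 0.10 with an SE of 0.059 (edgeR, unadjusted p = 0.113).

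Scn3b, which associates with the alpha subunit without a covalent bond, had between 115 and 137 CPM in wild-type mice (median 130), between 113 and 138 in Msh3-/- mice (median 124), between 130 and 152 in zQ175 mice (median 142) and between 132 and 165 in zQ175:Msh3-/- mice (median 141). The groups overlapped, with 6 of 8 zQ175 mice above the highest wild-type mouse and 5 of 8 zQ175:Msh3-/- mice above the highest Msh3-/- mouse. Its log2 fold change was 0.15 with an SE of 0.048 (edgeR, adjusted p = 0.0191) and 0.21 with an SE of 0.048 (edgeR, adjusted p = 9.09e-04), both short of 1.2-fold. The first adjusted p was 0.0567 in males only and 0.196 in females only. It was 0.0502 without mouse M3 of the wild-type group (log2 fold change 0.13). On the Msh3-/- background the log2 fold change was 0.093 in males only (edgeR, adjusted p = 0.244). In females only it was 0.365 (edgeR, adjusted p = 0.00285), past both thresholds. The difference between the sexes on this background was not tested. On the log2(TPM + 0.1) scale the value on the Msh3-/- background was 0.30 (limma, adjusted p = 1.46e-05) and passed both thresholds.

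**Figure D2:**
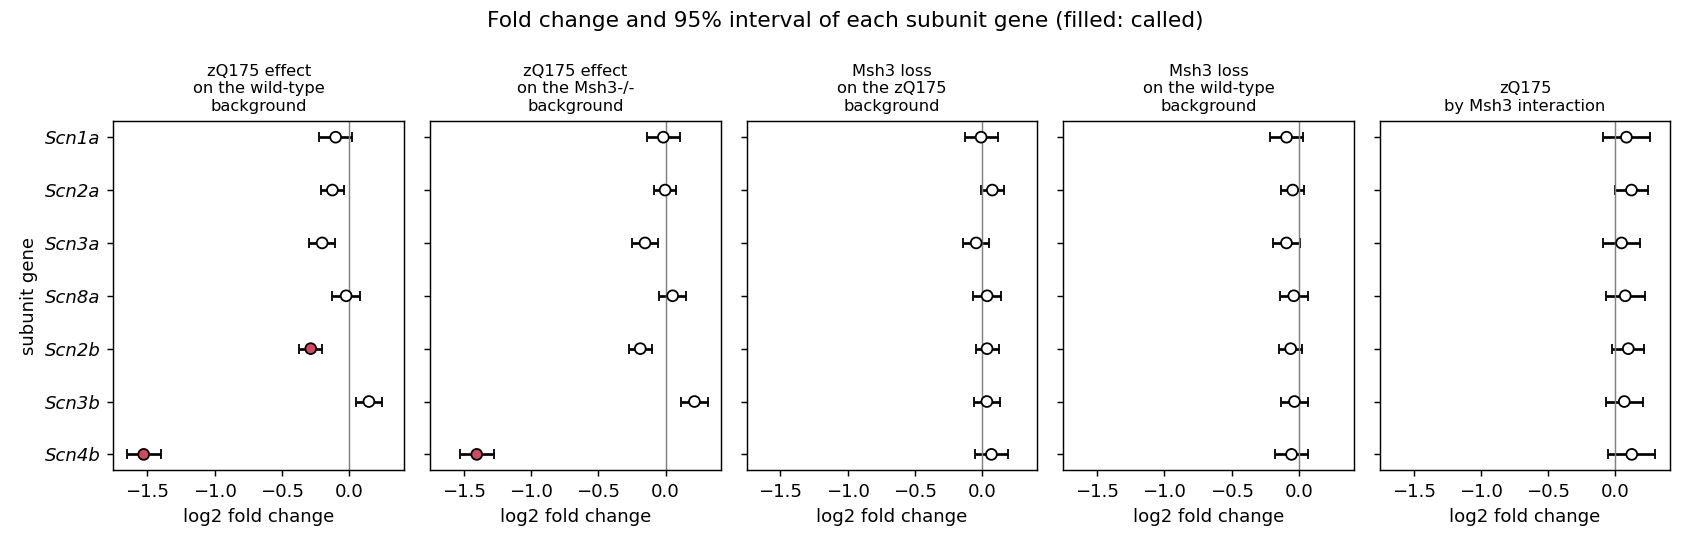
Log2 fold change (horizontal axes) with its 95% interval for each subunit gene (vertical axis) in the 5 comparisons; filled points passed both thresholds. Scn4b is at -1.53 and -1.40 in the zQ175 comparisons, and the points of the other 3 panels lie near 0.

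In all, 2 of the 7 subunit genes were called between zQ175 and wild-type mice, both lower, where 11.6% of the 16610 genes were called and 6.89% were called lower. At the adjusted p alone 5 of the 7 passed, against 26.5% of genes. On the Msh3-/- background 1 of 7 was called, against 10.6% of genes and 5.96% lower, and 4 of 7 passed at the adjusted p alone, against 24.1%. The median log2 fold change of the 7 genes was -0.12 and -0.02 in the 2 comparisons, where that of all genes tested was 0.01 in both. The 2 comparisons use different mice.

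Loss of Msh3 gave no call among the 7 genes on either background, where edgeR called 1 of the 16610 genes in each, Msh3 itself, 0.00602% on the zQ175 and 0.00602% on the wild-type background. At an unadjusted p under 0.05 there were 614 genes on the zQ175 background and 846 on the wild-type background, none of them a subunit gene, and DESeq2 called no subunit gene either. For Scn4b the log2 fold change of Msh3 loss was 0.07 with a 95% interval from -0.06 to 0.19 in zQ175 mice and -0.05 with an interval from -0.18 to 0.07 in mice without the expanded allele. These comparisons share the zQ175 and the wild-type mice with those above. The interaction of zQ175 and Msh3 passed for no gene by edgeR or by DESeq2, 0.00%, with 737 genes at an unadjusted p under 0.05 by edgeR, of which Scn2a was the only subunit gene. The zQ175 effect on the wild-type background also did not pass a test of a difference between males and females for any gene, 0.00%, with 706 genes at an unadjusted p under 0.05 by edgeR and 637 by DESeq2, none of them a subunit gene.

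Summed over the alpha subunits, the level was 241 ± 11.6 TPM (SD, n = 8) in wild-type mice against 232 ± 17.1 in zQ175 mice, and 232 ± 2.82 in Msh3-/- mice against 242 ± 12.9 in zQ175:Msh3-/- mice. Summed over the 3 beta subunits it was 998 ± 79.1 TPM in wild-type against 527 ± 31.9 in zQ175 mice, and 965 ± 62.9 in Msh3-/- against 554 ± 25.1 in zQ175:Msh3-/- mice. The alpha sums of the 4 genotypes overlapped, and the lowest beta sum without the expanded allele, 873 TPM, was above the highest with it, 609 TPM. Scn4b made up 70.7% ± 1.47 of the beta sum in wild-type and 48.2% ± 1.81 in zQ175 mice, while the share of Scn2b was 21.6% ± 1.07 and 34.9% ± 1.27. The ratio of the beta to the alpha sum was 4.15 ± 0.303 in wild-type and 2.28 ± 0.151 in zQ175 mice, and without Scn4b it was 1.21 ± 0.0522 and 1.18 ± 0.0811.

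**Figure D3:**
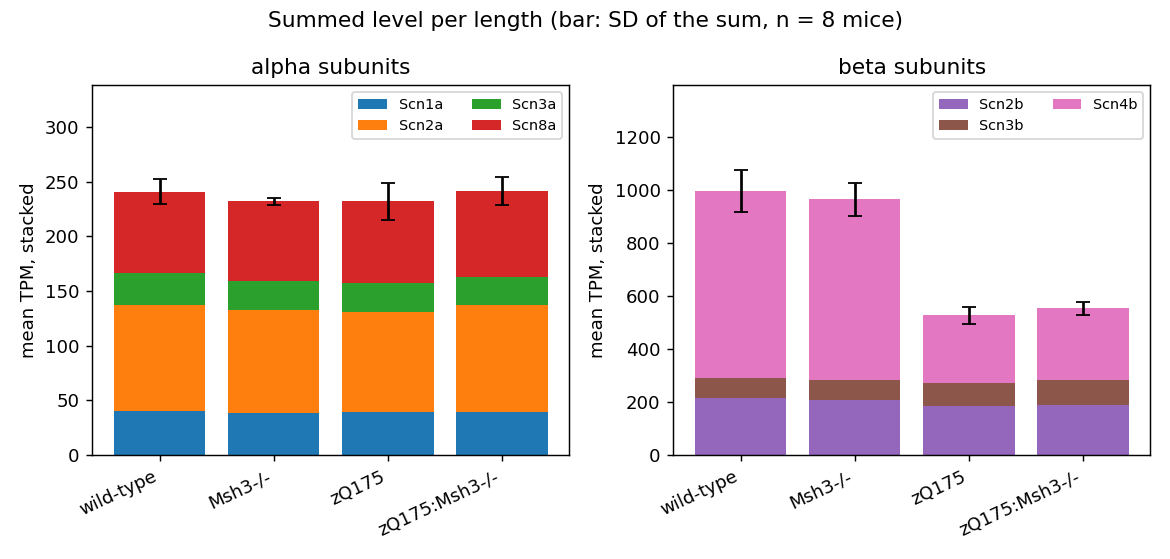
Mean TPM of the alpha (left) and beta (right) subunit genes stacked by gene (vertical axes, from 0) for the 4 genotypes; bars are the SD of the sum over 8 mice. The beta sum is 998 in wild-type and 527 in zQ175 mice, and the alpha sum is 241 and 232.

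Of 8 other sodium channel family genes, 5 passed the filter. Scn9a, known from sensory neurons, was the only one called and was higher in zQ175 mice, with a log2 fold change of 0.50 and an SE of 0.16 (edgeR, adjusted p = 0.0151) and of 0.78 with an SE of 0.16 on the Msh3-/- background (edgeR, adjusted p = 3.57e-04). It was scarce, with a median of 6.62 CPM in wild-type and 8.72 CPM in zQ175 mice. Over all genes tested, 11.6% were called on the wild-type and 10.6% on the Msh3-/- background.

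Of 23 partners of the channels and genes of the axon initial segment, 6 were called lower in zQ175 mice and none higher, where 11.6% of all genes tested were called and 6.89% were called lower. The median log2 fold change of the 23 was -0.04, and that of all genes tested 0.01. Fgf14, an intracellular partner of the alpha subunits, had a log2 fold change of -0.36 with an SE of 0.040 (edgeR, adjusted p = 5.06e-09), and Nedd4l, a ubiquitin ligase that acts on sodium channels, -0.43 with an SE of 0.050 (edgeR, adjusted p = 1.69e-08). Kcnq3, a potassium channel gene of the initial segment, was at -0.30. Rbfox1, a splicing regulator, was at -0.37 and Cntnap1, a paranodal protein, at -0.31. On the Msh3-/- background 3 of the 23 were called, all lower, among them Cntnap1 (-0.31) and Nedd4l (-0.28), where 10.6% of all genes tested were called and 5.96% were called lower. Ank3, which encodes ankyrin-G, was at -0.12 and -0.01.

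The 7 markers of spiny projection neurons, the cells in which Scn4b is abundant, were all called lower in both zQ175 comparisons. Of all genes tested, 6.89% were called lower on the wild-type background and 5.96% on the Msh3-/- background. The median log2 fold change of the 7 markers was -0.82 and -0.76. On the wild-type background the markers ranged from -1.18 to -0.54, and none was as low as Scn4b. Their summed level ranged from 6466 to 7991 CPM in wild-type and from 3554 to 4653 CPM in zQ175 mice, with Ppp1r1b the most abundant. It ranged from 6319 to 8358 CPM in Msh3-/- and from 3679 to 4614 CPM in zQ175:Msh3-/- mice. The part of these cells in the level of Scn4b was not tested. In bulk tissue, fewer cells of a type and less RNA per cell cannot be told apart. Among 5 markers of all neurons, Stmn2 alone was called, higher, at 0.65. On each background 1 of the 5 was called, higher, where 11.6% (wild-type) and 10.6% (Msh3-/-) of all genes tested were called.

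**Figure D4:**
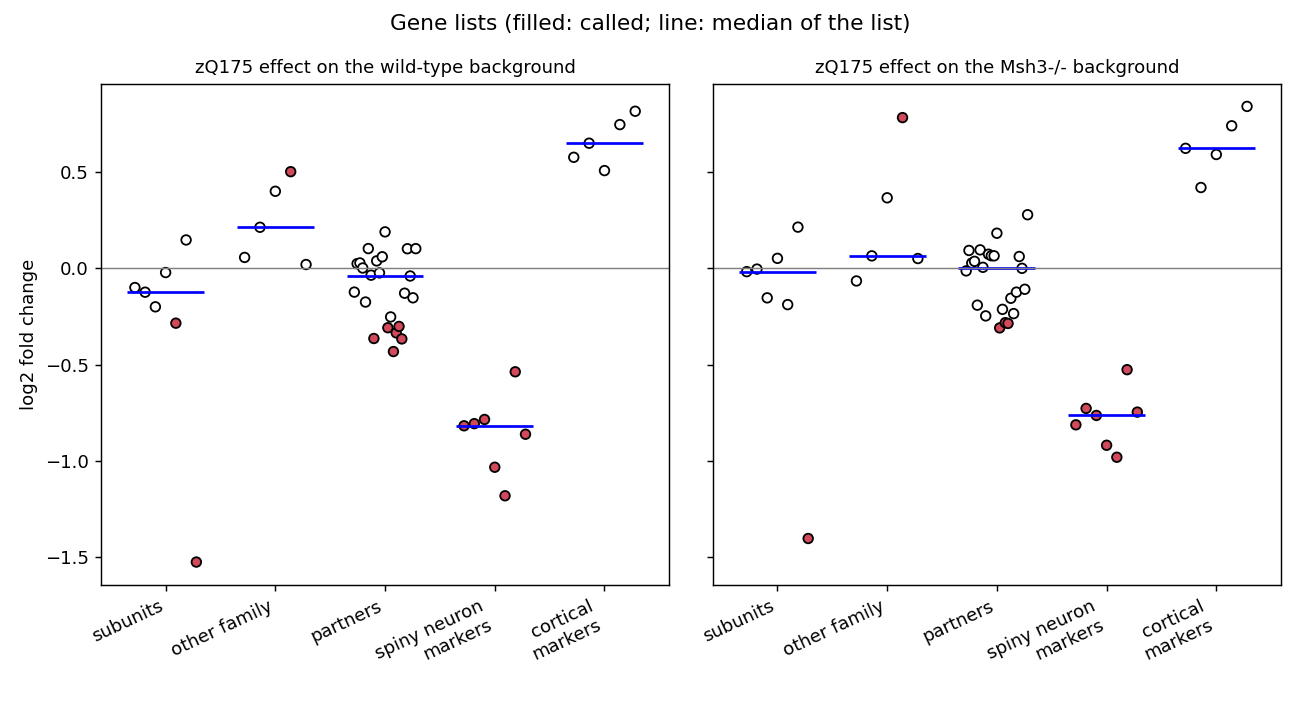
Log2 fold change (vertical axis) of the genes of each list, 1 point a gene, in the 2 zQ175 comparisons; filled points passed both thresholds and the line is the median of the list. The spiny projection neuron markers have medians of -0.82 and -0.76, and Scn4b is the lowest point of each panel.

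Markers of tissue next to the striatum varied between mice. The 5 cortical markers, led by Slc17a7, summed to between 44.9 and 302 CPM in wild-type, 47.0 and 452 in Msh3-/-, 35.5 and 390 in zQ175, and 129 and 655 in zQ175:Msh3-/- mice. Their median log2 fold change was 0.65 and 0.62 in the 2 zQ175 comparisons, and none of the 5 was called. The 3 choroid plexus markers, led by Ttr, summed to between 18.8 and 2895 CPM, and 7 mice were at 500 CPM or more, 2 wild-type, 3 Msh3-/-, 1 zQ175 and 1 zQ175:Msh3-/-. Without those 7 mice, a choice made after seeing the data, Scn4b and Scn2b were called on the wild-type background and Scn4b on the Msh3-/- background as before, while Scn3b on the wild-type background had a log2 fold change of 0.14, against 0.15 with all mice, and an adjusted p of 0.0536 (edgeR) with fewer mice. With the cortical sum as a term in the model, also added after seeing the data, the calls among the 7 genes were the same, with Scn4b at -1.51 and -1.39, and Scn3a on the Msh3-/- background had a log2 fold change of -0.11, against -0.15 without the term, and an adjusted p of 0.0613 (edgeR). The part of these tissues in the smaller differences was not tested further. Of the remaining lists, called genes on the wild-type background were 1 of 6 interneuron markers (Chat, at -0.27), 1 of 6 of oligodendrocytes (Mobp, at -0.33) and 1 of 3 of endothelial cells (Flt1, at -0.33), with 0 of 3 thalamic, 0 of 3 oligodendrocyte precursor, 0 of 5 astrocyte, 0 of 5 microglial, 0 of 3 choroid plexus and 0 of 1 tested muscle markers. Over all genes tested, 11.6% were called on this background. On the Msh3-/- background the called genes of these lists were Chat (-0.32) and Th (-0.43) of the interneuron markers, Prkcd (-0.64) of the thalamic markers and Acta1 (-0.42), a muscle gene. There 10.6% of all genes tested were called. Every listed marker had reads in at least 1 mouse.

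The genes whose log2 CPM over the 32 mice was most like that of Scn4b were Anks1b, Kcnab1 and Ppp3ca, with a Pearson r of 0.990, 0.989 and 0.988 and a Spearman rho of 0.948, 0.963 and 0.949. After the genotype means were taken out the values were 0.761, 0.886 and 0.811. Among those most like Scn2b were Sipa1l1 and Msl1, with an r of 0.923 and 0.920, a rho of 0.930 and 0.921, and an r of 0.739 and 0.771 without the genotype means. They are a description, since the mice fall into 2 sets by Htt genotype and share their libraries.

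Reads shared between genes could blur the alpha subunits more than the beta subunits. Of the 50-base words in the transcripts of Scn3a, 6.49% also occur in another sodium channel gene, with 5.62% for Scn2a, 4.03% for Scn1a and 0.0374% for Scn8a, and 0 for the 3 beta subunits. At 150 bases the shares were at most 0.421%. How reads were assigned to strands is not given in the sources used here, so reads of genes that overlap on opposite strands cannot be told apart. Scn2b overlaps Gm10684, with a mean of 3.47 counts, Scn3b overlaps Gm47266, Scn3a overlaps Gm13595, and Scn1a overlaps Gm13630, with a mean of 10 counts. Of the nearest genes on each side that passed the filter on low counts, Scn4b beside Scn2b was the only one called between zQ175 and wild-type mice. Gm24138, Gm35569, Gm47841, Gm47596, Gm10684 and Gm39327 did not pass it and were not tested.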

How the data were processed

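Counts per gene of striatal RNA from 32 mice were used as the authors deposited them, as whole numbers without normalization. A second table, deposited as FPKM, was treated as TPM since each column sums to 1000000. The submitters' processing notes name GRCm38.p6; the aligner, counter and strand setting are not given in the sources used here. The members and lists were chosen with earlier results of these data known.

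Counts were tested in edgeR 4.0.16 (R 4.3.3) with TMM, filterByExpr by genotype, a robust quasi-likelihood test in 1 model with a term for each genotype, and Benjamini-Hochberg adjustment over 16610 genes, and called at an adjusted p under 0.05 and a fold of at least 1.2 (for interactions, the adjusted p alone). The biological coefficient of variation common to all genes was 0.0985. For each member, log2 CPM was compared by an exact permutation test, two-sided. Alternatives were DESeq2 1.42.0, limma 3.58.1 on TPM, RLE, other filters and folds, sex or a replicate block as terms, each sex alone, only the groups compared, and leaving out each mouse. Sums, sequences and figures were made in Python 3.11.15, with gene positions from GENCODE M21 and promoters from RefSeq.

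Named genes were taken from the 7 members; of 8 family genes and 23 partners, those called lower or higher in zQ175 mice, up to 8 a list; the 3 genes most like each called member; and genes overlapping or nearest to a member. Other genes named, such as Ank3 and the markers, were named after their values were seen. Totals were between 12359347 and 25030335 counts per mouse; 3 counts in the shallowest mouse are a share of 2.43e-05%. No pair of mice of a genotype agreed within sampling noise.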

Additional observations from a re-analysis of the deposited data

Results flagged for a closer look

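Of 32 sets of 8 mice, the 7 genes and the total count in each genotype, 1 held a mouse far from the others, where chance gives about 1 in 20. Scn2a was at 284 CPM in mouse M3 of the zQ175:Msh3-/- group, the lowest of the 8, and the next mouse was at 319.8 CPM. Without each mouse in turn the log2 fold change of Scn2a for Msh3 loss in zQ175 mice ranged from 0.05 to 0.10.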

How the results depend on the processing

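Scn4b was called lower in both zQ175 comparisons in every setting run, with log2 fold changes from -1.60 to -1.44 and from -1.44 to -1.33. The count of subunit genes called between zQ175 and wild-type mice, 2, was 1 on each of the 3 TPM scales and at a fold of at least 1.5, and 5 with no fold threshold. On the Msh3-/- background the count, 1, was 2 on the 3 TPM scales, 2 in males only (Scn2b joined), 2 in females only (Scn3b joined) and 4 with no fold threshold. The TPM scales also moved the share of calls that were higher, from 40.6% to 59.9% on the wild-type background and from 44.0% to 68.5% on the Msh3-/- background, with log2(TPM + 0.1), and the median of all genes by 0.06 and 0.07. The zQ175 to wild-type ratio of the beta sum was 0.529 in TPM and 0.492 in CPM. The cause of these shifts was not tested. Leaving out each mouse gave 2 and 2 as the lowest and highest counts on the wild-type background, 1 and 1 on the Msh3-/- background and 0 for the rest.

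The sign changed only for values that were not called. On the wild-type background Scn8a was at 0.0023 on the TPM scales and 0.0146 in females. On the Msh3-/- background Scn2a was at 0.0027 with sex as a term, 0.0042 with the replicate block, 0.0557 on log2(TPM + 0.1) with or without a filter, 0.0552 on log2(TPM + 1) and 0.0351 in females, and Scn1a at 0.0398, 0.0390 and 0.0398 on the TPM scales, 0.0049 in males and 0.0637 without the 7 mice high in choroid plexus markers. For Msh3 loss in zQ175 mice Scn1a was at 0.0063, 0.0062 and 0.0063 on the TPM scales, 0.0254 in females and 0.0151 without those 7 mice, Scn3b at -0.0111 in males and Scn8a at -0.0040 in females. For Msh3 loss in wild-type mice, in males, Scn2a was at 0.0016, Scn3a 0.0140, Scn2b 0.0613, Scn3b 0.0584 and Scn4b 0.0171. The interaction in males was -0.0452 for Scn3a and -0.0694 for Scn3b. Leaving out 1 mouse, Scn8a ranged from -0.0420 to 0.0015 on the wild-type background, Scn1a from -0.0603 to 0.0193 and Scn2a from -0.0145 to 0.0224 on the Msh3-/- background, and Scn1a from -0.0514 to 0.0283 for Msh3 loss in zQ175 mice. The cause was not tested.

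Mice of the same number share only a number: over 45 pairs of the same sex and number the median correlation of their deviations was -0.0137, against -0.00612 for 147 pairs of other numbers. With the replicate block the counts of subunit genes called were 2 and 1, as without it, and it changed no other call among them; over all genes it gave 1931 and 1694 calls against 1925 and 1768. At this depth and with 8 mice a group the median SE of a log2 fold change over all genes was 0.067.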
